A study of Rattus norvegicus with 15 samples.

Results

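Slc4a1, Epb42, Ermap, Rhd, Rhag, Sptb, Ank1 and Epb41, 8 genes of the red cell membrane and the skeleton beneath it, were followed in the polyadenylated RNA of rat femurs. They were taken by gene name from the 30454 genes of each library, 1 entry per name, and described over 15 libraries of 5 groups with 3 libraries each. All rats were female and of the SD strain, 8 weeks old when the study began, and were treated for 8 weeks after 6 weeks of recovery from surgery. PJ rats were ovariectomised and gavaged with an extract combining Juglans regia L. (walnut) and Psoralea corylifolia Linn. at 4.0 g/kg per day. P rats were ovariectomised and given the Psoralea corylifolia Linn. extract at 2.4 g/kg per day, and J rats were ovariectomised and given the Juglans regia L. extract at 1.6 g/kg per day. OVX rats were ovariectomised and given saline, and Sham rats kept their ovaries, lost a like amount of fat at surgery and are labelled as given saline. Whether the 3 libraries of a group are 3 rats is not stated in the labels, and the p-values therefore speak for the scatter of the libraries. The labels give the tissue as femur and nothing on whether marrow or muscle was removed.

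A red cell keeps its shape because a mesh of spectrin lies under its membrane and is pinned to it at separate junctions. Ankyrin (Ank1) ties beta-spectrin (Sptb) to band 3 (Slc4a1), the chloride and bicarbonate exchanger, and protein 4.2 (Epb42) and the Rh proteins (Rhag, a gas and ammonium channel, and Rhd, its relative) sit in that complex. Protein 4.1 (Epb41) fastens spectrin to short actin filaments at the other junction and, unlike most of the set, is made in many cell types besides red cell precursors. Ank1, Sptb and Epb41 also have forms used by muscle. Ermap is a membrane protein of erythroblasts of the butyrophilin family. In adult rats these genes are switched on in the erythroblasts of the marrow, before the nucleus is lost.

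The deposited values were FPKM (fragments scaled by gene length and library size), whose steps gave library totals of 34.4 to 61.0 M reads. The members rested on 18 to 173345 recovered reads, and all 8 were above 0 in every library. All 8 passed the filter of a mean of 1 FPKM over the 15 libraries, which left 14416 genes for testing. Epb42, Ermap and Rhag were under 1 FPKM in Sham libraries 1 and 2. P library 2, PJ library 3 and Sham library 3 got the lowest weights when limma weighed libraries by how far they scattered from their group (0.195, 0.213 and 0.436), and in P library 2 mitochondrial genes held 36.8% of all FPKM, against 11.4% to 25.1% in the other libraries. Calls of the members that changed without those 3 libraries are given both ways, as counts of members or by gene.

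The order of the group means was the same for all 8 genes: lowest in Sham, then PJ, P and J, and highest in OVX. Taken as a share of the OVX mean, the genes other than Epb41 stood at 5.93% to 6.95% in PJ, 15.6% to 18.5% in P, 38.3% to 47.1% in J and 0.82% to 2.78% in Sham. Epb41 spanned a narrower range, at 26.4% of its OVX mean in PJ, 28.8% in P, 49.2% in J and 13.8% in Sham. PJ library 3 carried much of the PJ means: without it the genes other than Epb41 stood at 2.84% to 4.15% of the OVX mean in PJ, and Epb41 at 26.0%. Without P library 2 the same genes stood at 11.0% to 13.8% in P, with Epb41 at 32.6%, and without Sham library 3 at 0.41% to 2.71% in Sham, with Epb41 at 13.3%. Summed over the 8 genes, the members made up 0.011% to 0.050% of a library's FPKM in PJ, 0.045% to 0.082% in P, 0.126% to 0.187% in J, 0.312% to 0.421% in OVX and 0.0049% to 0.0094% in Sham. In bulk femur RNA, fewer cells of a type and less RNA per cell cannot be told apart.

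**Figure D1:**
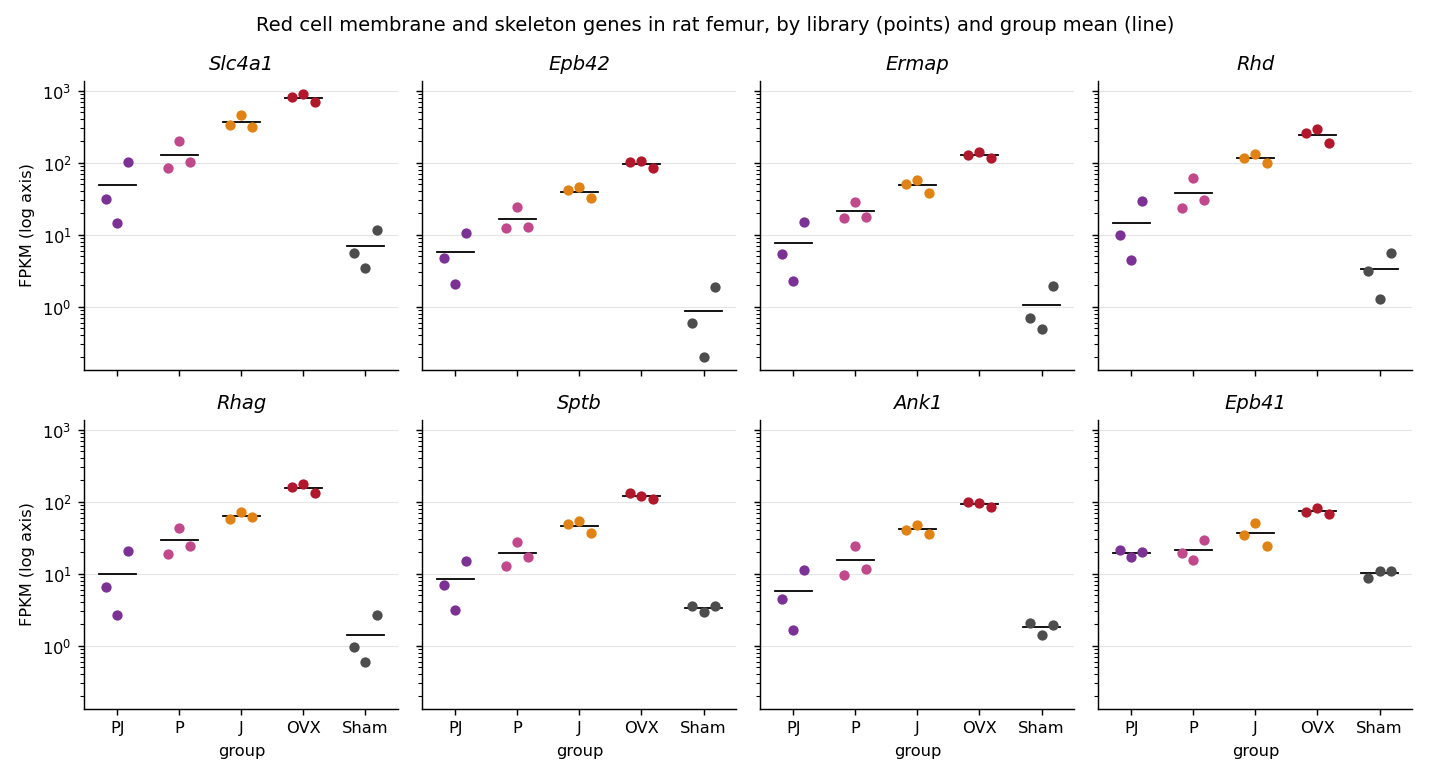
FPKM (log axis) of each gene in every library, with groups PJ, P, J, OVX and Sham from left to right; points are libraries in order 1 to 3 and the line is the group mean (n = 3). Each gene is highest in OVX, where Slc4a1 reaches 892 FPKM, and lowest by mean in Sham, and Epb41 is the flattest of the 8.

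Slc4a1 (ENSRNOG00000020951), the anion exchanger, was the most abundant of the 8 per unit of length in every library but PJ library 2 and Sham libraries 1 and 2, where Epb41 was higher. It had 30.9, 14.6 and 102 FPKM in the PJ libraries, 83.5, 201 and 101 FPKM in the P libraries and 332, 459 and 309 FPKM in the J libraries. The OVX libraries held 822, 892 and 686 FPKM and the Sham libraries 5.66, 3.43 and 11.7 FPKM. No J library reached the lowest OVX library, and PJ library 3 lay inside the P range, level with P library 3. Epb42 (ENSRNOG00000011649), the protein that steadies band 3, was lower throughout, at 4.69, 2.08 and 10.4 FPKM in PJ, 12.4, 24.2 and 12.6 FPKM in P and 41.0, 45.3 and 32.7 FPKM in J. Its OVX libraries held 101, 105 and 83.8 FPKM and its Sham libraries 0.59, 0.20 and 1.86 FPKM. For Epb42 no neighbouring pair in the order of groups overlapped.

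Rhd (ENSRNOG00000017130), which in humans carries the RhD blood group antigen, had 9.87, 4.47 and 29.8 FPKM in PJ, 23.7, 61.0 and 29.9 FPKM in P and 115, 131 and 98.5 FPKM in J. It had 257, 291 and 185 FPKM in OVX and 3.10, 1.30 and 5.58 FPKM in Sham, so that the PJ and Sham ranges overlapped through PJ library 2 and Sham library 3. Rhag (ENSRNOG00000050121), its partner, stood at 6.50, 2.64 and 20.5 FPKM in PJ, 18.9, 43.7 and 24.3 FPKM in P and 57.3, 71.3 and 60.8 FPKM in J. For Rhag the OVX libraries gave 162, 173 and 133 FPKM and the Sham libraries 0.95, 0.59 and 2.64 FPKM. The lowest Rhag value in PJ and the highest in Sham were the same to 3 digits, with PJ above. Ermap (ENSRNOG00000000335) had 5.31, 2.27 and 15.2 FPKM in PJ, 17.0, 28.7 and 17.5 FPKM in P, 51.3, 57.8 and 38.3 FPKM in J, 127, 140 and 115 FPKM in OVX and 0.70, 0.49 and 1.95 FPKM in Sham. Its 5 groups did not overlap at any step.

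Among the skeleton genes, Sptb (ENSRNOG00000006911), beta-spectrin, had 6.94, 3.12 and 15.2 FPKM in PJ, 12.7, 27.5 and 17.2 FPKM in P and 49.0, 54.2 and 36.2 FPKM in J. Its OVX libraries held 134, 121 and 109 FPKM and its Sham libraries 3.61, 2.97 and 3.52 FPKM. Sptb in PJ library 2 fell within the narrow Sham range, and PJ library 3 within the P range. Ank1 (ENSRNOG00000018241), ankyrin, had 4.46, 1.67 and 11.2 FPKM in PJ, 9.68, 24.5 and 11.6 FPKM in P and 40.4, 47.6 and 35.4 FPKM in J. Its OVX libraries held 98.4, 95.7 and 83.0 FPKM and its Sham libraries 2.05, 1.43 and 1.92 FPKM. Ank1 overlapped between PJ and P and between PJ and Sham, as Sptb did.

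Epb41 (ENSRNOG00000010037), protein 4.1, departed from this layout. It had 21.3, 17.1 and 20.3 FPKM in PJ, 19.2, 15.7 and 29.0 FPKM in P, 34.0, 51.2 and 24.0 FPKM in J, 72.3, 82.7 and 67.1 FPKM in OVX and 8.78, 10.9 and 10.9 FPKM in Sham. The PJ values lay inside the P range, and J library 3 lay below the highest P library. P library 2, the highest P library for each of the other genes, was the lowest for Epb41, and PJ library 3 was the highest of PJ for the others but not for Epb41.

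Transcription of several of these genes is known to depend on GATA1 and KLF1, the factors that drive erythroblast maturation, so the promoters of the members were read for their letters. RefSeq promoter windows of the GRCr8 build, from 250 bases before to 50 after 1 start site per gene, were matched for 6 members (Epb42, Ermap, Rhd, Rhag, Sptb and Epb41). The letters AGATAA or TGATAA, read on both strands, were found in 4 of the 6, against 18.9% of 33469 RefSeq promoters of the same length. These 60-base stretches around the letters are shown for the 4 genes that held them, with the GATA and CACCC letters of either strand in capitals:
Ermap, chr5:138088194-138088253, minus strand: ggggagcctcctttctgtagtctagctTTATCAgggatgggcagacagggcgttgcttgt
Rhd, chr5:152371101-152371160, plus strand: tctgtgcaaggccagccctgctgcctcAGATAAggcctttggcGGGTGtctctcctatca
Rhag, chr9:27594389-27594448, minus strand: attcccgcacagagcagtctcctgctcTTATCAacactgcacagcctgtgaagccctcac
Sptb, chr6:101170303-101170362, minus strand: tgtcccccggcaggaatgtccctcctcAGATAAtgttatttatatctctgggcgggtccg
The GATA letters began 68 bases before the start in Ermap, 72 in Rhd, 31 in Rhag and 57 in Sptb. CACCC was present in 4 of the 6 promoters, the same genes, against 54.9% of all promoters. The E-box CANNTG was present in 5 of the 6, against 72.1% of all, and TATAAA in 1, Sptb, against 14.2%. An E-box and a CACCC match of Rhd overlapped each other, and no other pair of matches did. The Epb42 window held an E-box and neither the GATA letters searched for nor CACCC letters. Other spellings that contain GATA were not searched for, and the Epb42 window holds such a spelling.

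The Epb41 window held none of the 4 motifs and is shown in full:
Epb41, chr5:149521944-149522243, minus strand: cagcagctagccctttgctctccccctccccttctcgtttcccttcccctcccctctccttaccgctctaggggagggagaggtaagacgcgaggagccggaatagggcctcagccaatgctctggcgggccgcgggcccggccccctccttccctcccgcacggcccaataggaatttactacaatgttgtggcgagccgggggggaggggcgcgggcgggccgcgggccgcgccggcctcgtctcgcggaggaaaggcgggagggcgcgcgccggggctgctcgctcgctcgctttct
Its GC content was 70.7% with 32 CpG, against medians of 51.7% and 7 over all promoters, but the Sptb window was as rich, with 74.3% and 32 CpG. A match is a description of letters and no test of binding, and a missing match says only that those letters are not in that window. Whether the letters go with how closely the genes moved together was not tested.

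All 8 genes were higher in OVX than in Sham, the contrast that asks what ovariectomy changed. In limma on log2(FPKM + 1) over all 15 libraries with Benjamini-Hochberg adjustment over 14416 genes, 54.2% of all genes tested passed at an adjusted p under 0.05 and 25.3% passed as higher, against 8 of the 8 members. The median log2 fold change of the members was 5.86, against -0.04 over all genes tested. Slc4a1, the exchanger, averaged 800 ± 105 FPKM in OVX and 6.94 ± 4.30 FPKM in Sham (SD, n = 3 each), and its log2 fold change was 6.79 ± 0.57 (SE; limma adjusted p = 1.27e-06). Epb41 had the smallest, at 74.0 ± 8.0 FPKM in OVX and 10.2 ± 1.2 FPKM in Sham, with a log2 fold change of 2.74 ± 0.25 (adjusted p = 2.31e-06). The spectrin and ankyrin genes came between, with Sptb at 4.81 ± 0.39 and Ank1 at 5.06 ± 0.44, and Epb42, Rhd, Ermap and Rhag ran from 5.79 to 6.12. As ratios of mean FPKM, which add no pseudocount, the differences were 122-fold for Ermap, 115-fold for Slc4a1, 36.0-fold for Sptb and 7.25-fold for Epb41. Without Sham library 3 they were 214-fold for Ermap, 176-fold for Slc4a1, 36.9-fold for Sptb and 7.52-fold for Epb41. The fit understates the change of genes that are low in Sham because 1 is added to each FPKM.

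The combined extract was compared with OVX, and all 8 genes fell. In PJ against OVX 44.4% of all genes tested passed and 14.6% passed as lower, against 8 of the 8 members, whose median log2 fold change was -4.13, against 0.22 over all genes tested. Slc4a1 averaged 49.1 ± 46.5 FPKM in PJ, against 800 ± 105 FPKM in OVX, with a log2 fold change of -4.42 ± 0.57 (limma adjusted p = 8.76e-05). Rhd, Rhag and Ermap had -4.30 ± 0.55, -4.22 ± 0.52 and -4.21 ± 0.45, Epb42 and Ank1 each had -4.05, and Sptb had -3.91 ± 0.39. Epb41 averaged 19.6 ± 2.2 FPKM in PJ and 74.0 ± 8.0 FPKM in OVX, a log2 fold change of -1.87 ± 0.25 (adjusted p = 0.000118). The PJ and OVX libraries did not overlap for any of the 8. The share of all genes tested without such overlap was not computed, for this or any other pair of groups.

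Psoralea alone gave the same direction with smaller differences. In P against OVX 39.2% of all genes tested passed and 15.0% passed as lower, and all 8 members fell, with a median log2 fold change of -2.60, against 0.12 over all genes tested. Rhag averaged 29.0 ± 13.0 FPKM in P and 156 ± 21 FPKM in OVX, with -2.47 ± 0.52 on the log2 scale (limma adjusted p = 0.00254), and Sptb averaged 19.1 ± 7.6 FPKM in P and 121 ± 12 FPKM in OVX, with -2.66 ± 0.39 (adjusted p = 0.000283). Epb41 stood at 21.3 ± 6.9 FPKM in P and 74.0 ± 8.0 FPKM in OVX, with -1.79 ± 0.25. The PJ, P and J comparisons share the 3 OVX libraries and are given side by side for that reason.

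Juglans alone left the 8 genes at 38.3% to 49.2% of their OVX means, and 1 of the 8, Epb41, fell by the test (log2 fold change -1.06 ± 0.25, limma adjusted p = 0.0320). In J against OVX 6.06% of all genes tested passed and 2.79% passed as lower. Epb41 did not pass without J library 1 or 3 or without OVX library 1 or 2, with adjusted p of 0.0860 to 0.122. The other 7 genes had log2 fold changes of -1.07 to -1.38 with adjusted p of 0.0550 to 0.246. The J and OVX libraries did not overlap for any of the 8, with no share over all genes tested to set beside it. When the spread was estimated from the J and OVX libraries alone, or without P library 2, PJ library 3 and Sham library 3, all 8 passed as lower. Of 14416 genes 1357 passed with the J and OVX libraries alone, 610 of them as lower. Without the 3 libraries 2881 passed, 1107 of them as lower, against 873 and 402 with every library in. Why the count of members moved between settings was not tested. In mean FPKM the 8 genes were 2.03-fold to 2.61-fold lower in J than in OVX.

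**Figure D2:**
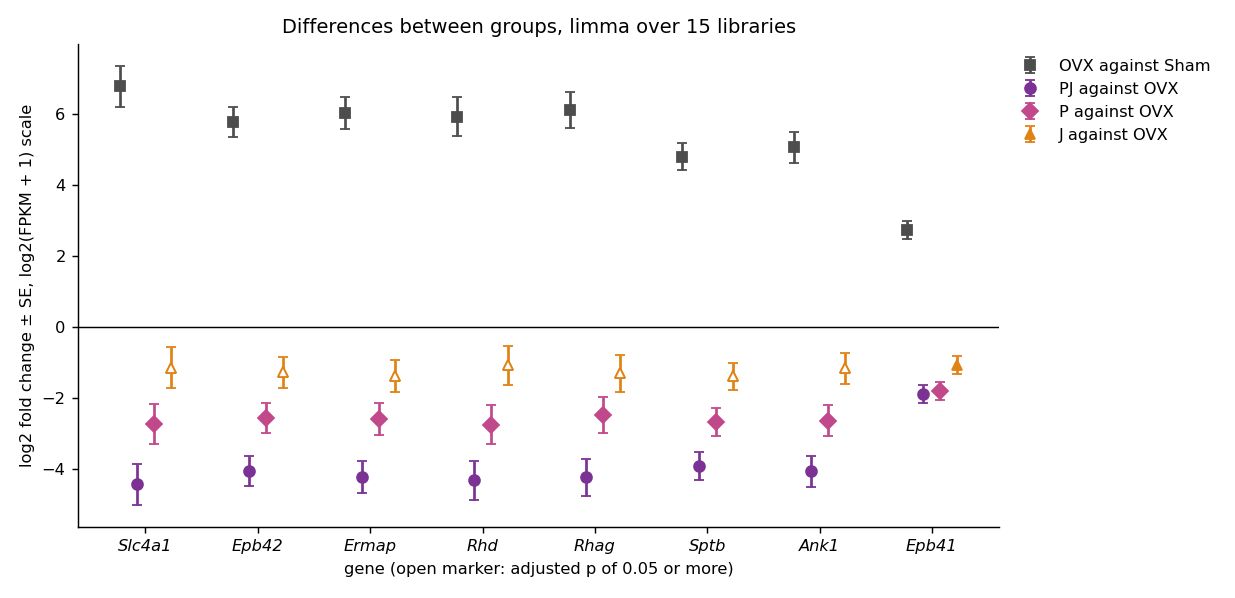
Log2 fold change on the log2(FPKM + 1) scale (y axis) of each gene (x axis) in OVX against Sham, PJ against OVX, P against OVX and J against OVX; bars are the standard error from limma over 15 libraries and open markers had an adjusted p of 0.05 or more. The 7 genes other than Epb41 step down from J to P to PJ, while Epb41 has -1.79 in P and -1.87 in PJ.

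Setting the extracts against each other, PJ lay below J for 7 of the 8 members by the test, among 14.3% of all genes tested that passed and 5.88% that passed as lower. Their log2 fold changes were -2.53 (Sptb) to -3.29 (Slc4a1) with limma adjusted p of 0.00453 to 0.00614, and Epb41 had -0.80 ± 0.25 (adjusted p = 0.0511, 0.0282 without J library 3 and 0.0420 without P library 2, PJ library 3 and Sham library 3). P against J gave 0 of the 8 members in limma and 0 in voom on recovered reads, with 7.42% of all genes tested passing and 3.05% passing as lower. Log2 fold changes were -0.73 (Epb41) to -1.67 (Rhd) there, with limma adjusted p of 0.0566 to 0.157. For 7 of the 8 genes the P and J libraries did not overlap, and the share over all genes tested was not computed. Without P library 2, 2 of the 8 passed as lower in P than in J, and without P library 2, PJ library 3 and Sham library 3 it was 7. Of 14416 genes 858 passed without P library 2, 333 of them as lower. Without the 3 libraries 21.9% of all genes tested passed and 7.34% passed as lower. PJ against P gave 0 of the 8 members and 0% of all genes tested in limma, and voom on recovered reads gave 0 members too. In PJ against P the genes other than Epb41 had log2 fold changes of -1.25 (Sptb) to -1.75 (Rhag). The limma adjusted p was 0.9998 for each of the 8. For Slc4a1 the 95% confidence interval of that difference was -2.94 to -0.46. Epb41 had -0.08, with a confidence interval of -0.62 to 0.47, and its sign turned under TPM scaling (0.02).

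Whether the combined extract differed from the sum of its 2 parts was tested as PJ minus J minus P plus OVX on the log2 scale. The test passed for 0 of the 8 members and 0% of all genes tested in limma, and for 0 members in voom. Epb41 had 0.99 ± 0.36 (adjusted p = 0.445), and the other 7 genes had -0.56 to 0.13 with standard errors of 0.55 to 0.81. For Slc4a1 the 95% confidence interval was -2.32 to 1.19.

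The treated groups were also set against Sham. In P against Sham all 8 genes were higher, among 7.80% of all genes tested that passed and 5.95% that passed as higher, with log2 fold changes of 0.95 (Epb41) to 4.06 (Slc4a1). Epb41 had a limma adjusted p of 0.0368 there and did not pass without P library 1 or 3 or without Sham library 1 or 2 (adjusted p of 0.0945 to 0.150). In J against Sham all 8 were higher as well, among 43.9% that passed and 23.0% that passed as higher, with 1.68 (Epb41) to 5.65 (Slc4a1). PJ was above Sham for 5 of the 8, among 11.2% that passed and 7.72% that passed as higher. Slc4a1 (2.36 ± 0.57, limma adjusted p = 0.0232), Rhag (1.90 ± 0.52), Ermap (1.83 ± 0.45), Epb42 (1.73 ± 0.42) and Epb41 (0.88 ± 0.25, adjusted p = 0.0440) passed. Rhd had 1.63 ± 0.55 (adjusted p = 0.0704), Ank1 1.01 ± 0.44 (0.135) and Sptb 0.89 ± 0.39 (0.140). These same 3 genes were the ones whose PJ and Sham libraries overlapped. The count of 5 was 2 without PJ library 1, 8 without PJ library 2 and 0 without PJ library 3, Sham library 1 or Sham library 2. Of 14416 genes 1615 passed with every library in, 1113 of them as higher. It was 1143 (710 higher) without PJ library 1 and 1794 (1266 higher) without PJ library 2. Without PJ library 3 it was 394 (346 higher), without Sham library 1 361 (310 higher) and without Sham library 2 426 (362 higher). Without P library 2, PJ library 3 and Sham library 3 the count of members was again 5, but Rhd passed (1.33, adjusted p = 0.0264) and Epb41 did not (0.90, adjusted p = 0.0623). In that setting 22.9% of all genes tested passed and 17.1% passed as higher. As a ratio of means, PJ stood 7.08-fold above Sham for Slc4a1 and 1.92-fold for Epb41. For Slc4a1 that ratio was 3.28 without PJ library 3 and 10.8 without Sham library 3, and for Epb41 it was 1.88 and 1.99.

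The members followed each other closely from library to library. Over the 28 pairs, Pearson's r of log2(FPKM + 1) across the 15 libraries was 0.889 to 0.999, with a median of 0.986. Libraries of a group share their treatment, so the same was computed on deviations from group means. The 21 pairs without Epb41 kept r of 0.880 to 0.991 (median 0.960), while the 7 pairs with Epb41 had 0.051 to 0.195. Within the 7 other genes, Sptb had its highest r with Ank1 and Ank1 with Sptb, at 0.985 for the deviations. Both stood at 0.88 to 0.92 with the membrane proteins. The highest r of any pair for the deviations was 0.991, between Slc4a1 and Rhag. These are descriptions over 15 libraries that share scaling and tissue make-up.

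**Figure D3:**
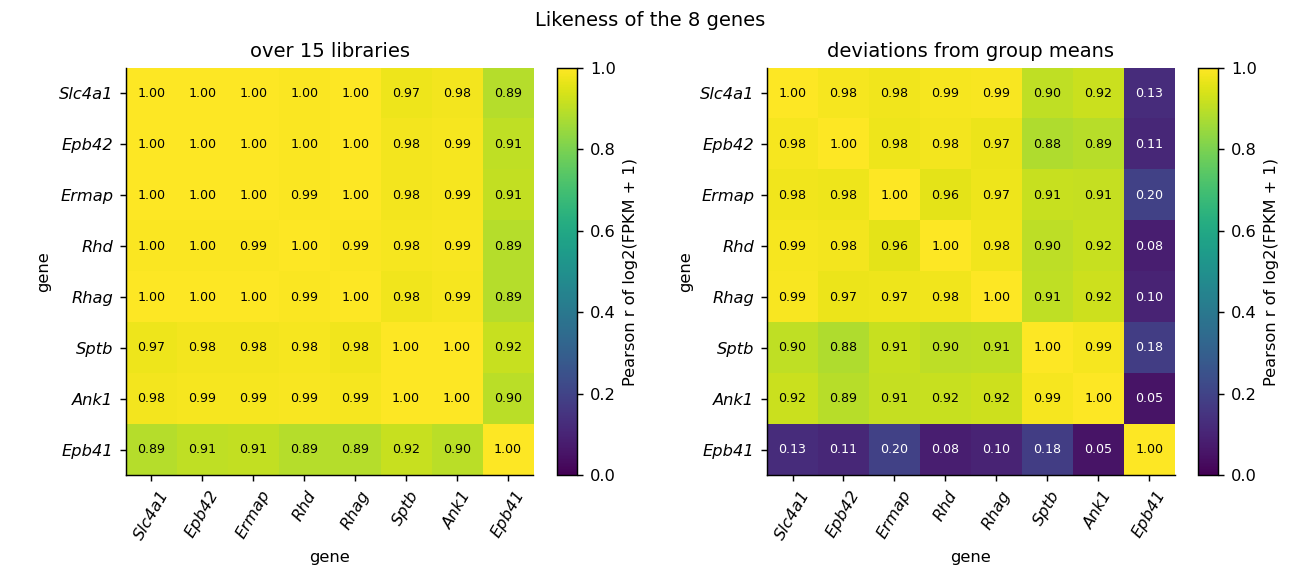
Pearson's r of log2(FPKM + 1) between each pair of the 8 genes, over the 15 libraries (left) and for deviations from group means (right); colour runs from 0 to 1. Epb41 is the row and column with low values on the right, 0.05 to 0.20.

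Because every library scaling cancels in a ratio of 2 genes of the same library, each member was also read as a percent of Slc4a1 FPKM. Epb42, Ermap and Rhag varied least between groups by this measure, and Epb42 stood at 13.2 ± 2.7% in PJ, 13.1 ± 1.6% in P, 10.9 ± 1.3% in J, 12.1 ± 0.3% in OVX and 10.7 ± 5.0% in Sham (SD, n = 3 each). The Epb42 ratio did not pass an exact permutation test over the 5 groups (p = 0.653, 0.653 adjusted over 7 ratios), nor did Ermap (p = 0.197) or Rhag (p = 0.0766), whose adjusted p was 0.107 or more. Sptb, Ank1 and Rhd had their largest share in Sham. Within Sham, Ank1 stood at 36.2%, 41.7% and 16.4% in libraries 1 to 3, and Sptb was likewise lowest in library 3. The 12 muscle markers described below summed to 318, 241 and 25.2 FPKM in those libraries. P library 2 had the largest muscle sum, 1035 FPKM, with 13.7% for Sptb and 12.2% for Ank1. Whether muscle RNA had a part in these shares was not tested. Sptb stood at 19.6 ± 4.1% of Slc4a1 in PJ, 15.3 ± 1.6% in P, 12.7 ± 1.7% in J, 15.2 ± 1.4% in OVX and 60.1 ± 28.4% in Sham (exact permutation p = 0.000575, adjusted 0.00403). Ank1 lay between 11.3% and 12.3% in the 4 ovariectomised groups and at 31.4 ± 13.3% in Sham (exact permutation p = 0.00894, adjusted 0.0156), and Rhd between 29.4% and 31.7%, against 46.7 ± 8.6% in Sham (exact permutation p = 0.00758, adjusted 0.0156).

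Epb41 had the widest range of ratios. It stood at 68.8 ± 48.9% of Slc4a1 in PJ, 19.8 ± 10.8% in P, 9.72 ± 1.76% in J, 9.28 ± 0.50% in OVX and 189 ± 116% in Sham (exact permutation p = 0.00144, adjusted 0.00503). Over the 4 ovariectomised groups alone no ratio passed after adjustment over the 7. There Epb41 had an exact permutation p of 0.0328 (adjusted 0.115), Rhag 0.00909 (adjusted 0.0636), Sptb 0.0523 (adjusted 0.122), Rhd 0.690 and Ank1 0.813. With the Sham libraries left out, which makes the test smaller, the passes over 5 groups were no longer seen.

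**Figure D4:**
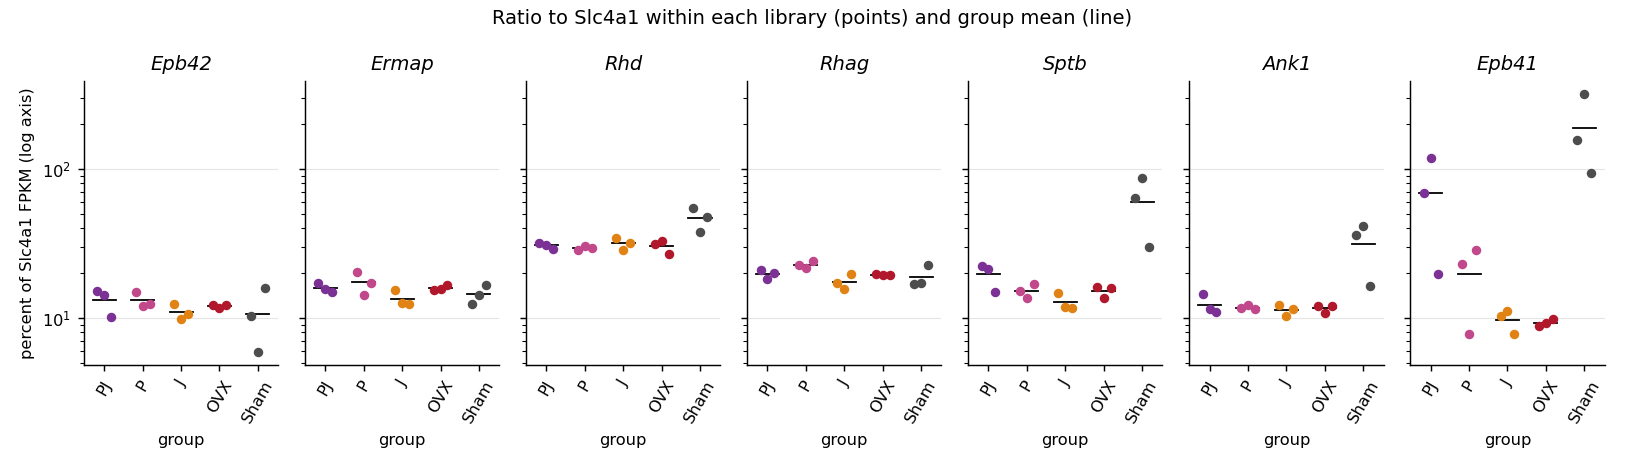
Level of each gene as a percent of Slc4a1 FPKM in the same library (log axis), groups PJ, P, J, OVX and Sham from left to right; points are libraries and the line is the group mean (n = 3). Epb42, Ermap and Rhag have group means of 10.7% to 22.8%, Sptb, Ank1 and Rhd are highest in Sham, and Epb41 runs from 9.28% in OVX to 189% in Sham.

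Other genes of the red cell membrane and its skeleton moved in both directions. Of 32 tested genes, 19 fell and 5 rose in PJ against OVX (median log2 fold change -0.93, against 0.22 over all genes tested), the same counts held in P, 4 fell in J, and 20 rose and 7 fell in OVX against Sham. Over all genes tested 14.6% fell and 29.8% rose in PJ against OVX, 15.0% fell and 24.2% rose in P, 2.79% fell in J, and 25.3% rose and 28.9% fell in OVX against Sham. Add2, beta-adducin, which caps actin at the protein 4.1 junction, had 4.44 ± 3.42 FPKM in PJ and 67.3 ± 9.7 FPKM in OVX (-3.84 ± 0.43). Xk, the partner of the Kell antigen, had 1.69 ± 0.71 FPKM in PJ and 10.3 ± 0.9 FPKM in OVX (-2.11 ± 0.20). Bcl2l1, which keeps late erythroblasts alive, was counted in this list though it is no part of that membrane or skeleton. Bcl2l1 had 10.0 ± 1.3 FPKM in PJ and 26.8 ± 5.5 FPKM in OVX (-1.32 ± 0.15).

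Of the relatives of the members that other cells use, more rose than fell in PJ and in P against OVX. Of 16 tested paralogs, 12 rose and 1 fell in PJ against OVX, 10 rose and 1 fell in P, 1 rose in J, and 10 fell in OVX against Sham. Over all genes tested 29.8% passed as higher in PJ against OVX, 24.2% in P and 3.27% in J, and 28.9% passed as lower in OVX against Sham. Without P library 3, or without OVX library 1, 7 paralogs rose in P. Of 14416 genes 2698 and 2510 passed as higher in those settings, against 3486 with every library in. Epb41l1, a relative of protein 4.1, averaged 14.2 ± 2.5 FPKM in PJ and 2.51 ± 1.39 FPKM in OVX (log2 fold change 2.19 ± 0.29, limma adjusted p = 9.62e-05), and Epb41l2 had 54.1 ± 11.2 FPKM in PJ and 17.1 ± 2.1 FPKM in OVX (1.59 ± 0.27). Slc4a2, the anion exchanger of most tissues, had 30.8 ± 5.1 FPKM in PJ and 10.4 ± 0.1 FPKM in OVX (1.47 ± 0.25), and Sptan1, the spectrin of other cells, had 53.9 ± 15.1 FPKM in PJ and 19.6 ± 2.5 FPKM in OVX (1.38 ± 0.20). The gene that fell in PJ was F13a1 (-1.81), a transglutaminase of platelets and macrophages, named after its value was seen.

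Erythroid genes outside the membrane moved as the members did. All 26 tested fell in PJ and in P against OVX, 2 fell in J, and 26 rose in OVX against Sham, while 14.6% of all genes tested fell in PJ, 15.0% in P and 2.79% in J, and 25.3% rose in OVX against Sham. Bpgm, which makes the phosphate that loosens oxygen from haemoglobin, averaged 37.7 ± 14.3 FPKM in PJ and 408 ± 80 FPKM in OVX (log2 fold change -3.45 ± 0.26, limma adjusted p = 1.66e-05), and the haem enzyme Urod had -2.61 ± 0.28. Prdx2, a peroxide-removing enzyme of red cells, had -2.77 ± 0.30. Of 14 erythroid transcription factors and their partners, 5 of which are also in that list, 10 fell in PJ, 11 fell in P, 1 fell in J and 13 rose in OVX against Sham, to be read against those same shares. Klf1 had 10.0 ± 9.8 FPKM in PJ, 135 ± 25 FPKM in OVX and 2.03 ± 0.91 FPKM in Sham, and Gata1 had 6.55 ± 5.96 FPKM in PJ, 84.2 ± 10.3 FPKM in OVX and 1.13 ± 0.54 FPKM in Sham. In PJ against OVX the log2 fold change was -3.99 ± 0.49 for Klf1, -3.80 ± 0.44 for Gata1, -3.32 ± 0.40 for Tal1 and -2.04 ± 0.24 for Zfpm1. Without P library 2, PJ library 3 and Sham library 3, the erythroid genes that fell in J against OVX numbered 22 of 26, the transcription factors 7 of 14 and the other membrane genes 14 of 32, while 7.68% of all genes tested fell there, against 2.79% with every library in.

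**Figure D5:**
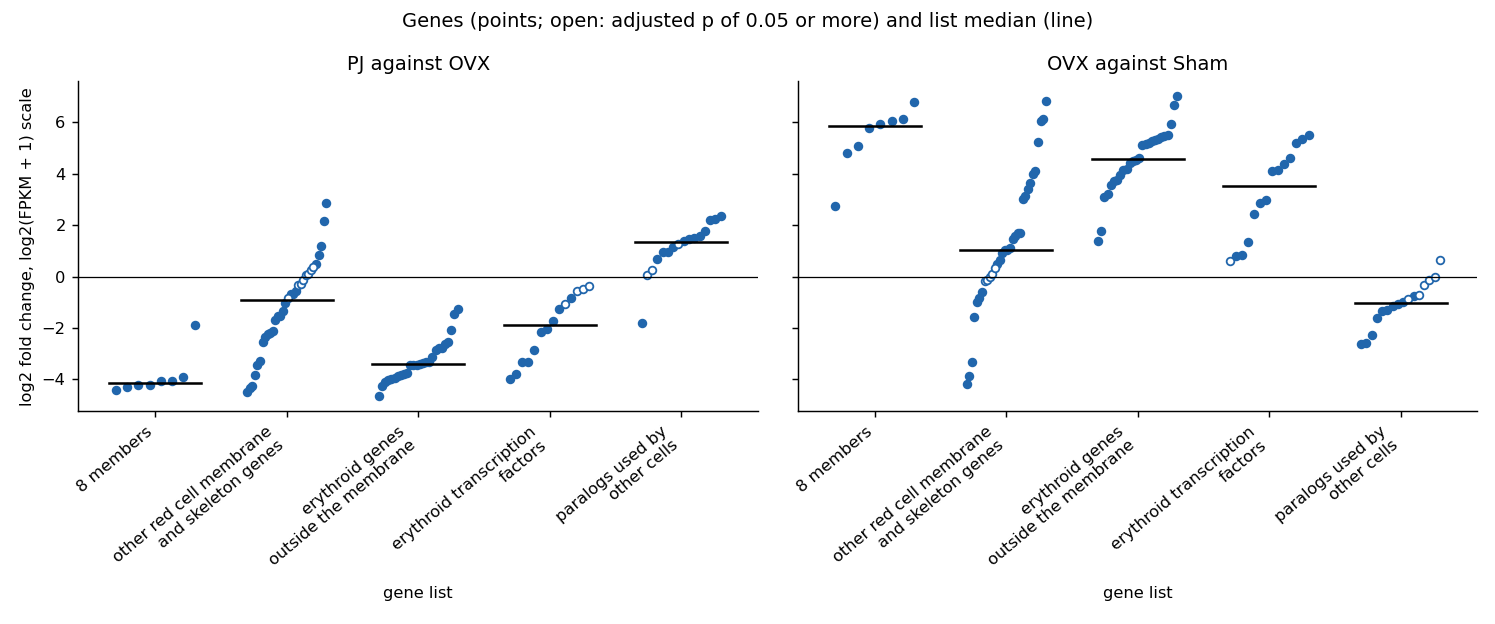
Log2 fold change on the log2(FPKM + 1) scale of the 8 members and of the tested genes of 4 lists (x axis) in PJ against OVX and OVX against Sham; each point is a gene, open where the adjusted p was 0.05 or more, and the line is the list median. The members and the erythroid genes lie below 0 on the left and above 0 on the right, and the paralogs lie mostly on the other side.

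Markers of other cells differed between the groups too, though not all in the same order. The 8 erythroid markers, 7 of which are also in the list of erythroid genes outside the membrane, summed to 1321 to 5743 FPKM in PJ, 3225 to 9035 FPKM in P, 16806 to 20680 FPKM in J, 29986 to 40462 FPKM in OVX and 367 to 2258 FPKM in Sham. The 10 neutrophil markers ran from 1965 to 9095 FPKM in PJ, 3629 to 7020 FPKM in P, 9337 to 23094 FPKM in J, 20124 to 23501 FPKM in OVX and 266 to 851 FPKM in Sham. B cell markers had another layout: the 8 of them summed to 351 to 732 FPKM in PJ, 151 to 590 FPKM in P, 576 to 1102 FPKM in J, 385 to 593 FPKM in OVX and 48.5 to 193 FPKM in Sham, with PJ and OVX overlapping. Bone matrix and vessel markers were lowest in OVX by median: the 8 osteoblast and bone matrix markers summed to 1344 to 6855 FPKM in PJ, 283 to 505 FPKM in OVX and 340 to 5624 FPKM in Sham, and the 8 endothelial markers to 206 to 398 FPKM in PJ, 70.0 to 99.9 FPKM in OVX and 367 to 609 FPKM in Sham. Cartilage markers summed to 4.69 to 596 FPKM in PJ, 16.6 to 1930 FPKM in P, 2.39 to 138 FPKM in J, 1.35 to 1.87 FPKM in OVX and 2063 to 4455 FPKM in Sham, and 12 muscle markers to 9.67 to 13.2 FPKM in PJ, 10.2 to 1035 FPKM in P, 11.6 to 115 FPKM in J, 7.07 to 87.4 FPKM in OVX and 25.2 to 318 FPKM in Sham, with Myh7 at 0 in every PJ library. P library 2, the highest P library for 7 of the 8 members, held the largest of these P sums, 1930 FPKM for cartilage and 1035 FPKM for muscle, while the other P libraries held 16.6 and 47.8 FPKM for cartilage and 56.0 and 10.2 FPKM for muscle. The part of these shifts in the members' differences was not tested.

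The genes most like the members were sought over 13501 named genes by r of log2(FPKM + 1) across the 15 libraries. Among the nearest to the mean of the 8 were Add2 (0.996), Trim58 (0.996), a ubiquitin ligase of late erythroblasts, Cdc25b (0.996), a phosphatase that starts mitosis, and Klf1 (0.994). For single members, the nearest gene to Epb42 and to Rhd was Add2 (0.998 each), to Rhag Hemgn (0.997), to Sptb Btnl10 (0.995) and to Ank1 Slc25a37 (0.996), the iron importer of mitochondria. Nearest to Epb41 was H3f3a-ps9 (0.987), named as a histone pseudogene, whose reads cannot be told apart from those of its parent genes here.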

How the data were processed

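The authors deposited FPKM, reads per gene scaled to gene length and library size, under a heading that reads as counts, as the values show since they are not whole. The heading FPKM itself stands over an empty column in all 15 files. Tools named in the submitters' processing notes are STAR 2.7.11a, fastp 0.23.4 and featureCounts 2.0.6, on build mRatBN7.2. No source used here states strandedness, so overlapping antisense genes cannot be told apart. The steps of the FPKM gave back whole reads for 24204 of 24207 detected genes, within 0.05 read, and 64.2% of the recovered numbers from 1 to 20 were even, as when both mates are counted.

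Genes with a mean of at least 1 FPKM were tested with limma 3.58.1 in R 4.3.3 on log2(FPKM + 1), with a trend and 10 residual degrees of freedom, and p-values were adjusted by Benjamini-Hochberg over all genes tested. The fit was tested on simulated data with known changes. Ratios to Slc4a1 were tested over libraries by exact permutation of the variance between groups, which has no direction. The p-values were adjusted over 7 ratios, and this test was chosen after the data were seen. Same-numbered libraries of different groups were compared, as deviations from group means, to see whether numbers pair them. The members and lists were chosen with earlier results of these data known. The named genes are the members, the 4 of each list with the smallest p in PJ against OVX, and the nearest genes by r, of which some are not reported here. Alternatives covered pseudocount 0.1, a mean of at least 5 FPKM and no filter, TPM and median-ratio scaling, scaling without mitochondrial and globin genes, array weights, a replicate block, only the groups compared, voom on recovered reads, each library left out, and 3 libraries left out together. This last choice, and means without 1 of those 3, were made after the data were seen. A floor of 3 reads lay at 0.0492 to 0.0873 RPM. Protein sequences were not used here.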

Additional observations from a re-analysis of the deposited data

How the results depend on the processing

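All 8 members passed in the same direction in OVX against Sham, PJ against OVX, P against OVX and J against Sham under all 17 alternatives run for each, and PJ against P gave 0 members under every one. J against OVX (1 member) gave 0 with no filter and with TPM scaling, 2 with a mean of at least 5 FPKM and with median-ratio scaling, and 8 with array weights, with only the groups compared and with P library 2, PJ library 3 and Sham library 3 left out together. Leaving out 1 library at a time it gave 0 to 1. P against J (0 members) gave 7 with array weights and 7 with the 3 libraries left out, and 0 to 2 leaving out 1 library. PJ against Sham (5 members) gave 8 with array weights, 3 with median-ratio scaling, with no filter and with voom, 1 with only the groups compared, and 0 to 8 leaving out 1 library. Additivity (0 members) gave 1 with array weights. With array weights many more of the 14416 genes passed as well: 3934 in J against OVX, 4197 in P against J, 6959 in PJ against Sham and 920 in additivity. The cause of these changes was not tested.

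Replicate numbers did not visibly pair the libraries: 9 of 30 same-numbered pairs had r over 0.1, from -0.41 to 0.49 (median -0.007). Of the pairs with different numbers, 14 of 60 had r over 0.1, from -0.55 to 0.60 (median 0.011). With a replicate block 8 members passed in OVX against Sham, P against OVX, PJ against OVX and J against Sham, 7 in P against Sham (8 without the block), 7 in PJ against J, 4 in PJ against Sham and 1 in J against OVX. Over all genes 1232 passed in P against Sham with the block and 1125 without it, and 1827 and 1615 in PJ against Sham.

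Signs turned for differences smaller than their standard errors. Epb41 in PJ against P was 0.018 with TPM and -0.27 to 0.16 leaving out 1 library at a time. Leaving out 1 library at a time, additivity ran from -1.30 to 0.064 for Slc4a1, -0.72 to 0.22 for Epb42, -0.87 to 0.28 for Ermap, -1.16 to 0.082 for Rhd, -1.14 to 0.14 for Rhag, -0.37 to 0.62 for Sptb, -0.83 to 0.27 for Ank1. Sptb was -0.084 with the 3 libraries left out.

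Over all genes, the count passing was 873 in J against OVX (22 to 3934 over the alternatives), 1069 in P against J (0 to 4197), 1125 in P against Sham (478 to 6090), 2056 in PJ against J (397 to 7405) and 1615 in PJ against Sham (361 to 6959). Median-ratio scaling moved the median of all genes in PJ against OVX to -0.03, and the share of higher calls to 45.7%, against 67.1% as reported and 63.3% to 74.6% under the other alternatives. Epb42 in Sham library 2 rested on 18 reads, a counting error of 23.6%, or 33.3% if these are 9 fragments with both mates counted, and 3 libraries a group limit the intervals.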

Other observations

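A few genes on the list of other red cell membrane genes moved against the members, and they are named after their values were seen. Slc29a1, a nucleoside carrier, had a log2 fold change of 2.84 in PJ against OVX and -4.18 in OVX against Sham. Bcam, the laminin-binding Lutheran antigen, had 2.16 and -3.86 in the same comparisons, and Slc2a1, the glucose carrier of red cells in humans and of many other cells, had 1.20 and -3.31. Bsg, a chaperone of lactate carriers, had 0.84 and -1.58, and Tpm1, a tropomyosin, had 0.47 and -0.83. All of these passed limma's test at an adjusted p under 0.05 in both comparisons, which share the OVX libraries. Kel, a blood group gene of the same list, went with the members, with -4.34 in PJ against OVX and 6.06 in OVX against Sham.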
